A study of Sus scrofa with 8 samples.

Results

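Genes of oxygen carriage on these arrays of pig skeletal muscle were myoglobin (MB), the haemoglobin chains HBB and HBA1, and AHSP, the chaperone of the haemoglobin alpha chain. They were taken by name: every spot whose single gene symbol in the platform annotation was 1 of these 4. This gave 14 of 9984 spots, of which 6 were named MB, 4 HBB, 2 HBA1 and 2 AHSP. They are 4 of the 2922 genes with a named spot. To ask how diet affects pig muscle, a sample from the high energy diet and 1 from the low energy diet were hybridised together on each array. The 8 arrays formed 4 couples of samples, each measured with the high energy sample in dye 5 and again with the dyes exchanged. High energy samples 40, 41, 40 and ae met low energy samples 49, 61, 142 and be in couples 1 to 4, so sample 40 serves in both couple 1 and couple 3. The sources used here give no breed, age or muscle, and do not say whether a sample is 1 animal or a pool. P-values therefore reflect only the variation among the couples, part of which may be technical.

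Myoglobin holds oxygen inside striated muscle fibres and is most abundant in slow, oxidative fibres, where it supplies the mitochondria during contraction. Haemoglobin carries oxygen in red cells as a tetramer of alpha and beta chains around haem. In whole muscle its transcripts come with the blood left in the vessels, mostly from young red cells that still hold RNA. AHSP binds free alpha chains in red cell precursors and keeps them soluble until they meet a beta chain. MB thus marks the fibres, and the other 3 genes mark blood.

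Values are log2 ratios, and a positive one means higher in high energy muscle under the likely reading. The labels place the high energy sample in channel 2 of every array and name the low energy samples as the reference, but no source used here states which channel was divided by which. For this reason a turned value stands in brackets after a gene's ratio: the ratio with the sign reversed on the 4 arrays whose high energy sample carried dye 3. The turned value is the one to read if the files hold dye 5 over dye 3, and under the likely reading it is the effect of the dye. Ratios per gene are limma estimates ± SE over 4 couples, in which couples 1 and 3 carry less weight because of their shared sample. Over features measured on most arrays, limma's consensus correlation within couples was -0.033 under the likely reading. The 2 arrays of a couple thus agreed no more than arrays of different couples, which limits every couple mean. A ratio does not show a level, so the labelled tissue could not be checked from its markers.

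Myoglobin had a lower value in high energy muscle in all 4 couples, while the haemoglobin chains lay close to 0 and their chaperone varied widely. MB had a log2 ratio of -0.32 ± 0.10 (turned 0.22), a value 1.24-fold lower in high energy muscle. HBB had 0.038 ± 0.10 (turned 0.094), HBA1 had -0.025 ± 0.10 (turned 0.029) and AHSP had -0.27 ± 0.16 (turned 0.17). None passed limma's test, with an adjusted p of 0.996 for each of the 4 genes. Over the whole array 0 of 5025 features passed, or 0%, and 190 had an unadjusted p under 0.05. Of the 4 genes only MB was below 0 at an unadjusted p under 0.05, as were 121 features or 2.41% of all tested. MB was also the only one of the 4 below 0 in all 4 couples, a pattern shown by 9.12% of the 3640 features measured in every couple. In bulk muscle, fewer cells of a type and less RNA per cell cannot be told apart.

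The couples of MB had ratios of -0.12, -0.30, -0.24 and -0.52 in couples 1 to 4. Those of HBB were 0.12, 0.14, 0.15 and -0.19. HBA1 had 0.14, -0.010, -0.11 and -0.093. Couple 4 was the lowest for MB and the only one below 0 for HBB, whereas for HBA1 only couple 1 was above 0. AHSP had -0.24, 0.12, -0.18 and -0.74, with couple 4 again the lowest and couple 2 on the other side of 0. Without couple 4 the AHSP ratio was -0.068, and without couple 2 it was -0.44, so its size rests on which couples are used.

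**Figure D1:**
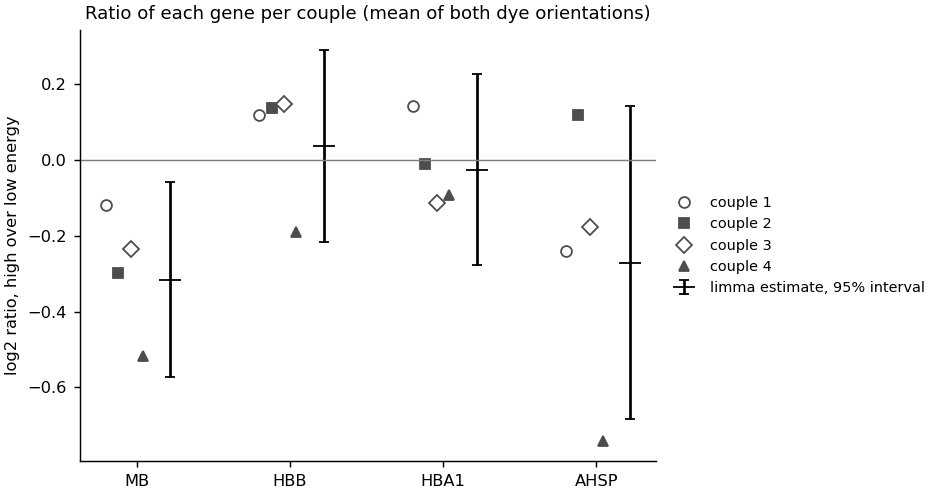
The plot gives the log2 ratio of high over low energy muscle (vertical axis) for MB, HBB, HBA1 and AHSP. Each symbol is a couple, as the mean of its 2 dye orientations, open symbols are the couples sharing high energy sample 40, and the bar is limma's estimate with its 95% interval, not adjusted for the number of features. All 4 couples of MB lie below 0, between -0.52 and -0.12, while the couples of HBB, HBA1 and AHSP lie on both sides of 0.

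The 95% interval of the MB ratio ran from 0.67-fold to 0.96-fold of the low energy level, before any adjustment for the 5025 features. The interval of HBB ran from 0.86-fold to 1.22-fold, and that of HBA1 from 0.82-fold to 1.17-fold. AHSP had the widest interval, from 0.62-fold to 1.10-fold.

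Myoglobin was represented by 3 pairs of neighbouring spots, and they did not give the same answer. The platform annotation gives 1 human accession for spots 97 and 98, and 3 accessions, the same 3 for each, for spots 921, 922, 4171 and 4172. The sequences of the probes were not used here, so which part of the MB transcript each pair binds is not known. The pair at 921 and 922 had a ratio of -0.61 ± 0.093 (turned 0.49), and the pair at 4171 and 4172 had -0.42 ± 0.13 (turned -0.014). The pair at 97 and 98 had 0.078 ± 0.11 (turned 0.18). When pairs were taken as features, the pair at 921 and 922 had the second smallest p of 5361 features, but its adjusted p in limma was 0.997 and 0 features passed. That setting was chosen after the data were seen.

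The pair at 921 and 922 had couple means of -0.44, -0.68, -0.51 and -0.70, all below 0 and close to each other. Its values in couples 1 to 4 with high energy in dye 5 were -0.11, -0.43, -0.12 and 0.18. On the swapped arrays, with high energy in dye 3, they were -0.77, -0.94, -0.91 and -1.59. All 4 arrays with high energy in dye 3 were therefore lower than every array with high energy in dye 5. The share of all features that separate in this way was not counted. The pair averaged -0.12 ± 0.25 with high energy in dye 5 and -1.05 ± 0.37 with high energy in dye 3 (SD, n = 4 arrays each). Its turned value of 0.49 ± 0.14 had an adjusted p of 0.997 in limma. The cause of the difference between the orientations was not tested.

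Single spots of this pair could differ greatly on an array. In couple 2 with high energy in dye 5, spot 921 read 0.90 and spot 922 read -1.76, a gap of 2.66. That gap exceeded 99.3% of all gaps between neighbouring spots of 1 gene. On the 4 arrays with high energy in dye 3, spot 921 read -0.89, -1.19, -1.03 and -1.83 in couples 1 to 4. Spot 922 read -0.66, -0.68, -0.78 and -1.36 there. Both spots were thus below -0.6 on every array of that orientation, with the lowest values in couple 4.

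The pair at 4171 and 4172 had couple means of -0.18, -0.27, -0.47 and -0.69, again all below 0. Spot 4172 was below 0 on all 8 arrays, with -0.24, -0.28, -0.41 and -0.85 in couples 1 to 4 with high energy in dye 5 and -0.14, -0.37, -0.48 and -0.14 with high energy in dye 3. It was the only one of the 14 spots with that pattern, which 1.26% of the 5418 spots measured on all arrays shared. Its neighbour 4171 was much less steady, from -1.78 in couple 4 with high energy in dye 5 to 0.68 in couple 3 with high energy in dye 5. This pair averaged -0.38 ± 0.66 with high energy in dye 5 and -0.43 ± 0.50 with high energy in dye 3 (SD, n = 4 arrays each). These close means came from gaps in opposite directions within couples. In couples 1 to 4 the pair read -0.34, 0.017, 0.14 and -1.31 with high energy in dye 5. With high energy in dye 3 it read -0.014, -0.56, -1.08 and -0.055.

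The pair at 97 and 98 had couple means of 0.27, 0.056, 0.28 and -0.16, so 3 of 4 were above 0. Spot 98 alone had a ratio of 0.27 ± 0.11, the only MB spot above 0, and the other 5 lay between -0.71 and -0.12. Taken couple by couple, the pair at 921 and 922 was lower than that at 97 and 98 by a mean log2 difference of -0.70 ± 0.11 (SD, n = 4 couples), lower in 4 of 4 couples. The pair at 4171 and 4172 differed from it by -0.51 ± 0.18 (SD), also lower in 4 of 4. Turned, the pair at 921 and 922 had the highest ratio of the 3 (0.49), against 0.18 for that at 97 and 98 and -0.014 for that at 4171 and 4172, so the order of the pairs depends on the direction. An exact two-sided sign permutation over 4 couples cannot give a p below 0.125, and both differences reached that value (adjusted p = 0.208 over 5 differences between pairs). Of the 3 MB pairs, 2 were below 0 in all 4 couples, against 9.01% of the 3864 pairs and single spots measured in every couple.

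**Figure D2:**
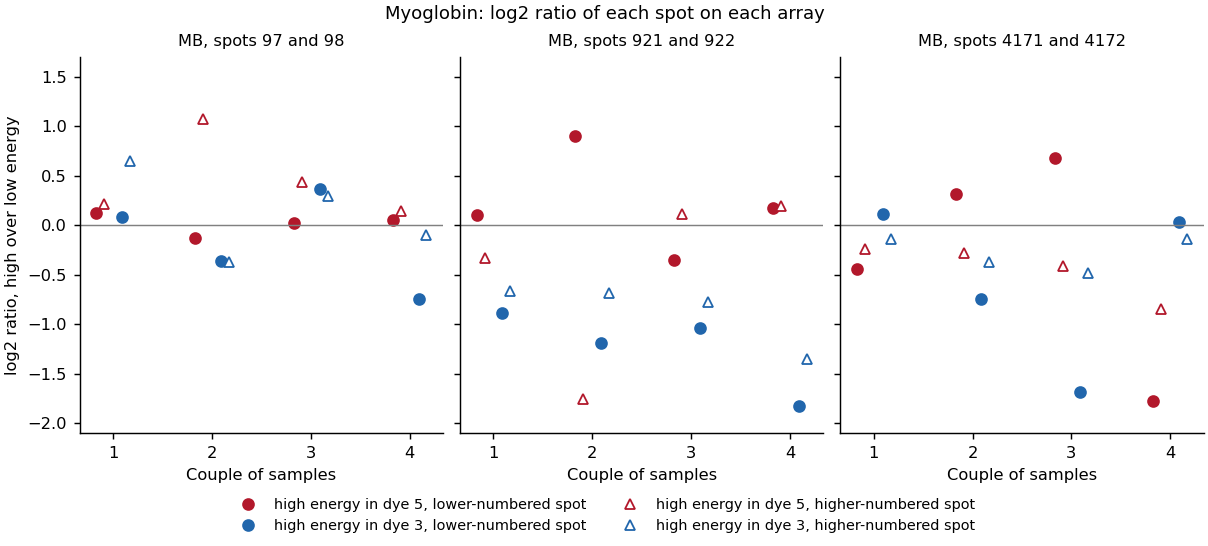
Each panel shows 1 pair of neighbouring MB spots, with the couple on the horizontal axis and the log2 ratio of high over low energy on the vertical axis. Red marks arrays with high energy in dye 5 and blue those with high energy in dye 3, filled circles are the lower-numbered spot and open triangles the higher-numbered one. In the middle panel every blue symbol lies below -0.6, in the right panel the triangles are below 0 on all 8 arrays, and the left panel scatters around 0.

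Averaged over its 6 spots, MB had -0.095, 0.022, 0.081 and -0.34 in couples 1 to 4 with high energy in dye 5. On the swapped arrays, with high energy in dye 3, it had -0.14, -0.62, -0.55 and -0.69. It was below 0 on 6 of 8 arrays, and each couple was lower with high energy in dye 3. The share of all features with either pattern was not counted, and every couple of HBA2 was also lower with high energy in dye 3. All 4 arrays of that orientation were below 0 for MB and for AHSP, as for 8.33% of the 4248 features measured on all 4. The MB ratio was -0.099 from the arrays with high energy in dye 5 alone and -0.53 from those with high energy in dye 3 alone. With the median of its spots in place of the mean it was -0.18. Every couple left out in turn gave a value below 0, from -0.35 to -0.23.

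**Figure D3:**
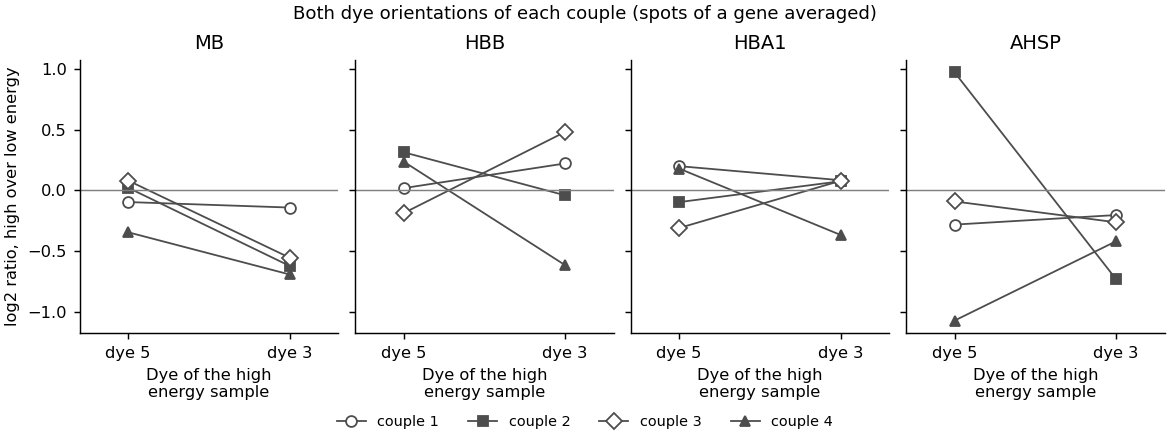
Each line joins the 2 arrays of a couple, with high energy in dye 5 on the left and in dye 3 on the right, and the vertical axis is the log2 ratio of high over low energy with the spots of a gene averaged. The 4 lines of MB all slope down, from values between -0.34 and 0.081 on the left to values between -0.69 and -0.14 on the right. The lines of HBB, HBA1 and AHSP cross. The share of all features whose lines all slope the same way was not counted.

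The beta chain gene HBB gave no steady direction. Its pair at spots 117 and 118 had couple means of -0.022, 0.13, 0.029 and -0.12, and a ratio of 0.0047 ± 0.091 (turned 0.17). The pair at 1593 and 1594 had 0.26, 0.14, 0.27 and -0.25, with a ratio of 0.072 ± 0.12 (turned 0.022). The 2 pairs carry the same human accession and differed by 0.099 ± 0.20 (SD, n = 4 couples), with the pair at 1593 higher in 3 of 4 (exact two-sided sign permutation p = 0.375). The largest swings came from single spots. In couple 3, spot 117 read -1.02 with high energy in dye 5 and 1.36 with high energy in dye 3, while its neighbour 118 read 0.078 and -0.31 on the same arrays. Spot 1593 read -0.64 in couple 3 with high energy in dye 5 and its neighbour 1594 read 0.84, a gap of 1.48. Neighbouring HBB spots had opposite signs on 4 of 8 arrays for the first pair and on 3 of 8 for the second. The MB pairs were similar, with opposite signs on 1 array at 97 and 98, 3 at 921 and 922, and 4 at 4171 and 4172.

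The spots of the alpha chain gene HBA1 agreed closely on every array. Its spots 833 and 834 differed by at most 0.15 on any of the 8 arrays and never in sign. For comparison, the median gap between neighbouring spots of 1 gene over the whole array was 0.27, and 5% of gaps exceeded 1.32. In couples 1 to 4 the pair read 0.20, -0.096, -0.31 and 0.18 with high energy in dye 5, and 0.084, 0.076, 0.079 and -0.37 with high energy in dye 3. The values of HBA1 thus changed sign between the orientations in couples 2, 3 and 4, although its 2 spots agreed on each array within 0.15. Its mean was -0.0061 ± 0.24 with high energy in dye 5 and -0.032 ± 0.22 with high energy in dye 3 (SD, n = 4 arrays each).

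The brightness of the spots can be bounded in part, under 1 assumption. Most deposited ratios can be written as a ratio of 2 whole numbers under 5000, and the larger of them is called the recovered signal. If a value is an unscaled ratio of 2 whole-number intensities, this is a lower bound on the brightness of that spot on that array. The sources used here do not say whether the values were scaled. For 11 of 16 HBA1 values no ratio of numbers under 5000 was found, against 3.32% to 15.1% of all values per array. The recovered signal of MB had a median of 313 (14 to 1254), that of HBB a median of 377 and that of AHSP a median of 424. The bound is loose where the 2 whole numbers share a factor, and it fell to 1 for an HBB value and 2 for an AHSP value. A low recovered signal therefore need not mean a dim spot. These numbers are no measure of how much of each transcript was present. MB had 8 of 48 values beyond 1 in size, 7 of them below -1, while HBB had 3 of 32, AHSP 2 of 14 and HBA1 0 of 16. Over all spots 4.73% of values were beyond 1 in size.

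**Figure D4:**
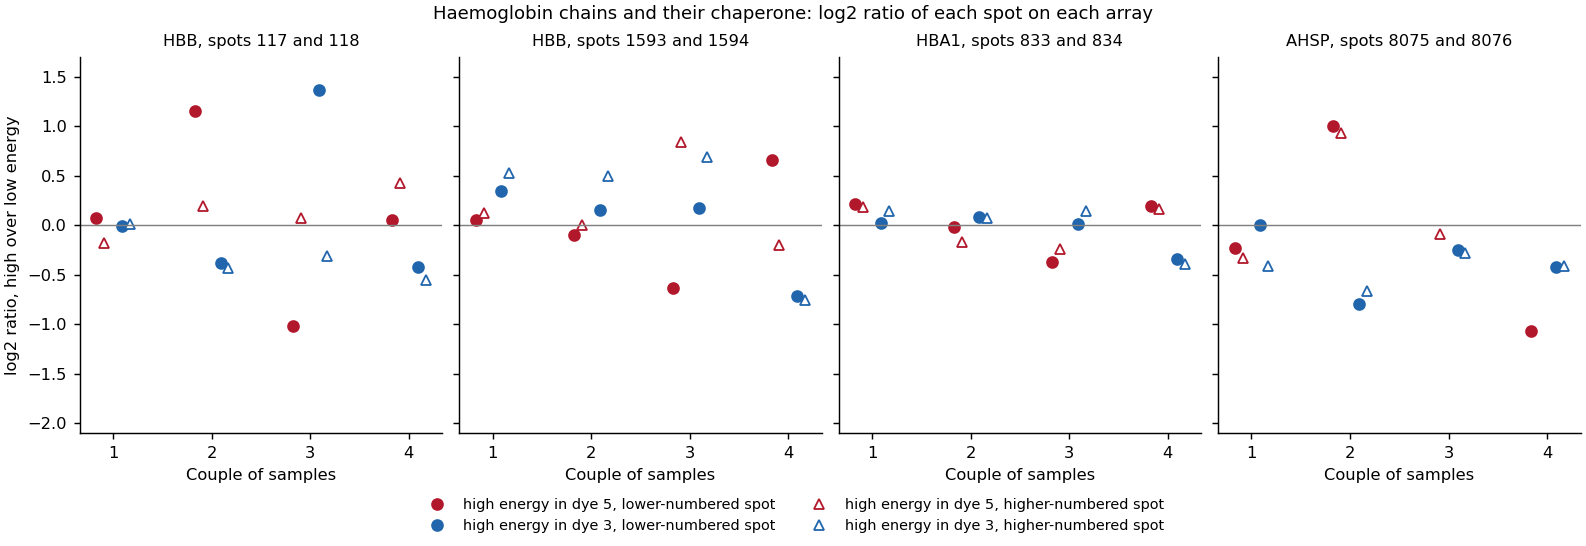
Each panel shows 1 pair of neighbouring spots of HBB, HBA1 or AHSP, with the couple on the horizontal axis and the log2 ratio of high over low energy on the vertical axis. Colours and symbols mark the dye of the high energy sample (red dye 5, blue dye 3) and the spot of the pair (circle lower-numbered, triangle higher-numbered). HBA1 symbols stay between -0.39 and 0.22, whereas HBB spots range from -1.02 to 1.36 and AHSP spots from -1.07 to 1.01.

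HBA2, the second alpha chain gene in human, had a named pair of its own at spots 13 and 14, and it is not counted among the 4 genes. The human alpha chain genes are nearly identical, so pig alpha chain transcripts may reach either pair, and their values cannot be assigned to separate genes. HBA2 had a ratio of 0.022 ± 0.12 (turned 0.10), with couple means of 0.0072, 0.31, -0.13 and -0.16. It differed from HBA1 by 0.027 ± 0.20 (SD, n = 4 couples; exact two-sided sign permutation p = 1.0). Couples 3 and 4 were below 0 for both alpha chain pairs.

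AHSP had 1 pair of spots, 8075 and 8076, and 14 of 16 values. On the array of couple 3 with high energy in dye 5 only spot 8076 was measured, and on that of couple 4 only spot 8075. The gene had -0.28, 0.97, -0.090 and -1.07 in couples 1 to 4 with high energy in dye 5. On the swapped arrays it had -0.20, -0.73, -0.26 and -0.42. The 2 spots moved together, with a median gap of 0.086 on the 6 arrays that hold both, so the swing between 0.97 and -0.73 in couple 2 was seen by both spots. AHSP averaged -0.12 ± 0.84 with high energy in dye 5 and -0.40 ± 0.24 with high energy in dye 3 (SD, n = 4 arrays each). It was below 0 on 7 of 8 arrays, and the exception was couple 2 with high energy in dye 5. The share of all features below 0 on that many arrays was not counted.

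Set against each other within couples, the average of the 6 MB spots lay below both haemoglobin chains, and the haemoglobin chains did not separate. MB minus HBB was -0.24, -0.44, -0.38 and -0.33 in couples 1 to 4, a mean of -0.35 ± 0.084 (SD, n = 4 couples). MB minus HBA1 was -0.26, -0.29, -0.12 and -0.42, a mean of -0.27 ± 0.12 (SD). Averaged over its spots, MB was therefore lower than each haemoglobin chain in 4 of 4 couples. The exact two-sided sign permutation gave p = 0.125 for each, the smallest it allows, and adjusted p = 0.250 over 6 differences. The MB pairs at 921 and 4171 lay below both chains in every couple. The pair at 97 and 98 did not, with couple means of 0.27, 0.056, 0.28 and -0.16. Those of HBB were 0.12, 0.14, 0.15 and -0.19, and those of HBA1 were 0.14, -0.010, -0.11 and -0.093. The lower MB average holds under the likely direction. Turned, the 2 differences were 0.17 and 0.20.

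HBB minus HBA1 was 0.073 ± 0.16 (SD, n = 4 couples), above 0 in 2 couples and below 0 in 2. AHSP minus HBA1, the chaperone against its client chain, was -0.24 ± 0.34 and lower in 3 of 4 couples. AHSP minus HBB was -0.31 ± 0.22, lower in 4 of 4 couples (exact two-sided sign permutation p = 0.125; adjusted p = 0.250). Turned, AHSP minus HBA1 was 0.13 and AHSP minus HBB was 0.10. MB minus AHSP was -0.032 ± 0.28, with 2 couples on each side. All members of a couple come from the same arrays, and couples 1 and 3 share a sample, so the 4 differences are not fully independent.

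Across the 8 arrays, HBA1 followed HBB more nearly than MB or AHSP did. The order is a description of arrays that the genes share. Likeness was measured as the root mean square difference of the 8 array values, over 1927 other named genes measured on every array. HBA1 was the 22nd nearest gene to HBB, at 0.24, against a median of 0.42 over those genes and 0.33 for a flat line at 0. HBA2 was 743rd, MB 1381st and AHSP 1722nd. In couple 4 both HBB and HBA1 were above 0 with high energy in dye 5 (0.24 and 0.18) and below 0 with high energy in dye 3 (-0.61 and -0.37). In couple 3 both had the reverse, at -0.19 and -0.31 with high energy in dye 5 and 0.48 and 0.079 with high energy in dye 3. In couple 2 their signs were opposite, at 0.31 and -0.096 with high energy in dye 5 and -0.040 and 0.076 with high energy in dye 3. In couple 1 both were above 0 in both orientations. The genes nearest to HBB were EIF1AX at 0.16, CTPS2 at 0.19, PLEKHF1 at 0.20, NSMAF at 0.20 and EIF4EBP1 at 0.20.

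The genes nearest to MB over the 8 arrays were IRAK1, a kinase of interleukin-1 receptor signalling, at 0.17, and TCEA3, a transcription elongation factor, at 0.20. NPR1, a receptor of natriuretic peptides, followed at 0.22, then RHBDD3 and ATP5MC1, a subunit of ATP synthase, both at 0.25. Their log2 ratios lay between -0.31 and -0.17. The median of all genes was 0.48 and a flat line at 0 was at 0.41. In that order of 1927 genes HBA2 was at 428, HBA1 at 644, AHSP at 750 and HBB at 1109, so HBB was farther from MB than the median gene and the other 3 were nearer.

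Genes that share the fibre type or the blood with these 4 are given as background to them, from lists chosen with earlier results of these data known. Of 20 measured genes of slow and oxidative fibres, 16 were below 0 and 4 above, with a median log2 ratio of -0.043 (turned 0.0015). Of 18 fast fibre genes, 14 were above 0 and 4 below, with a median of 0.078 (turned 0.00038). Over all 5025 features 53.6% were below 0 and the median was -0.012. No gene of either list passed the test over all features. At an unadjusted p under 0.05 the slow list held 2 genes below 0 and none above, and the fast list 3 above 0 and none below, where 2.41% of all features were below 0 and 1.37% above 0 at that p. The slow genes were MYBPC1, a myosin-binding protein, at -0.31 ± 0.091 (turned 0.024), and TNNT1, the slow troponin T, at -0.21 ± 0.080 (turned -0.047). The fast genes were PGAM2, a glycolytic mutase of muscle, at 0.35 ± 0.089 (turned -0.057), MYL1, a fast myosin light chain, at 0.37 ± 0.10 (turned -0.036), and PKM, a pyruvate kinase, at 0.57 ± 0.21 (turned 0.053). Below 0 in the fast list were the myosin heavy chains MYH1 at -0.17 ± 0.11 (turned 0.060) and MYH2 at -0.087 ± 0.096 (turned 0.095). With them were ACTN3 at -0.097 ± 0.14 in 3 couples (turned -0.11) and TNNC2 at -0.015 ± 0.085 (turned -0.016). Above 0 in the slow list were ANKRD2 at 0.15 ± 0.083 (turned -0.069) and HSPB6 at 0.052 ± 0.080 (turned 0.031). MYL6B had 0.049 ± 0.090 (turned -0.15) and NFATC1 had 0.010 ± 0.13 in 3 couples (turned 0.061). MB, at -0.32, lay beside MYBPC1 under the likely direction, but turned the values were 0.22 for MB and 0.024 for MYBPC1. The part of fibre type in the MB ratio was not tested.

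Of 26 listed red cell markers 5 were measured, 4 below 0 and 1 above, with a median of -0.028 (turned 0.0077). Whether each of them, such as TMOD1 and ANK1, marks only red cells in muscle tissue was not tested. The median of these 5 genes ran from -0.27 to 0.15 over the 8 arrays. BSG, a membrane glycoprotein also found on other cells, had -0.15 ± 0.11 (turned -0.051), and PRDX2, a peroxiredoxin abundant in red cells, had -0.051 ± 0.094 (turned 0.0077). The anion exchanger SLC4A1 and the haem enzyme ALAS2, of the same list, were not measured here by a named spot. Of the haem genes 4 were measured, 3 below 0, with a median of -0.067 (turned -0.017). HEBP2 had -0.30 ± 0.19 in 3 couples (turned -0.22), and BLVRB, a biliverdin reductase, had -0.064 ± 0.086 (turned -0.10). Of 3 iron genes 2 were below 0, with a median of -0.042 (turned 0.083). ISCU, a scaffold for iron-sulphur clusters, had -0.17 ± 0.26 (turned 0.37), and FTL, the ferritin light chain, had -0.042 ± 0.085 (turned 0.083). The 2 measured genes of oxygen sensing were NDRG1, a gene induced by low oxygen, at -0.20 ± 0.22 (turned 0.25) and LDHA, a lactate dehydrogenase chain, at 0.089 ± 0.17 (turned 0.14). None of these passed, and the part of blood content in the HBB, HBA1 and AHSP ratios was not tested.

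Of 20 listed vessel markers 10 were tested, and 7 of these were above 0, against 46.4% of all features. Their median was 0.11 (turned -0.055). Whether each of them, such as DES, marks only vessels in muscle tissue was not tested. EMCN, a sialomucin of endothelium, had 0.25 ± 0.12 in 3 couples (turned 0.15) and TAGLN, of smooth muscle, had 0.11 ± 0.10 (turned -0.16). Of 12 white cell markers 5 were above 0 and 7 below, with a median of -0.033 (turned -0.030). C1QA, a complement chain made by macrophages, had -0.34 ± 0.16 (turned -0.096), and HLA-DRB1, of antigen presentation, had 0.19 ± 0.096 (turned 0.011).

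**Figure D5:**
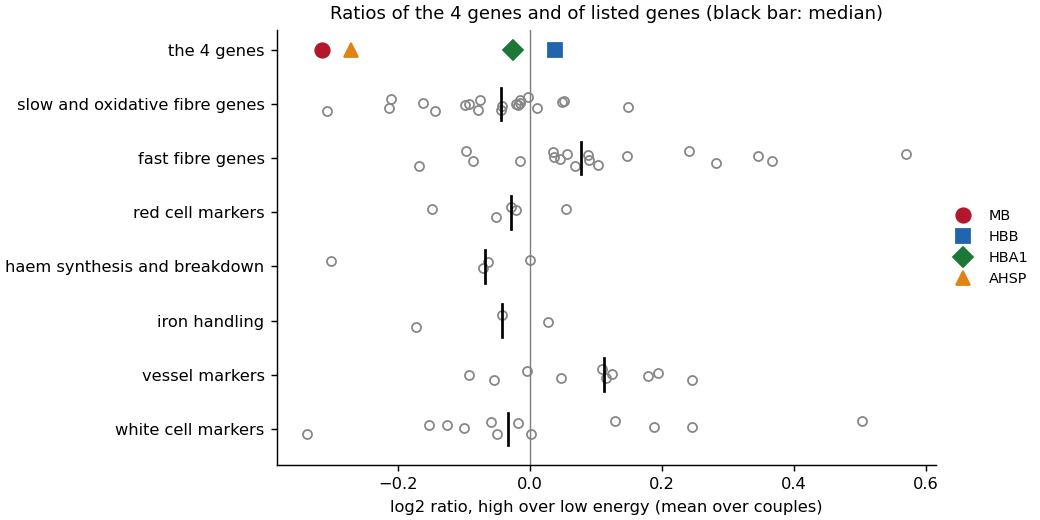
The horizontal axis is the log2 ratio of high over low energy, averaged over couples. The top row shows the 4 genes, and each row below shows the measured genes of a list as open circles with a black bar at the list's median. MB and AHSP lie near -0.3, HBA1 and HBB near 0, and the medians of the slow and fast fibre lists lie at -0.043 and 0.078. The lists of other globins (1 gene) and oxygen sensing (2 genes) are not drawn.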

How the data were processed

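Each deposited value is a log2 ratio of the 2 channels of 1 array. Their base was inferred, since per array 6.59% to 19.2% of them were base 2 logarithms of simple fractions (denominators of at most 60), against 0.011% to 0.46% in base 10 and 0 in base e. Per the labels and the series' design text, cDNA was labelled with Cy3 and Cy5 and read with a ScanArray LITE scanner; the dyes are called 3 and 5, as in the sample titles. As to how the authors corrected background, filtered, normalized and directed the ratios, the sources used here do not say. Array medians were -0.0071 to 0.011, and values were present for 77.6% to 94.4% of spots (SD of log2 ratios 0.34 to 0.72). The number of arrays limits the precision.

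Arrays were centred on their medians, spots with the same single symbol were averaged, and the 2 arrays of a couple were averaged to 1 replicate. Spots without 1 symbol stayed single. Features with both orientations in at least 3 couples were tested with limma 3.58.1 in R 4.3.3 (lmFit, eBayes) against 0, two-sided, blocked on the high energy sample (correlation 0.5), with Benjamini-Hochberg adjustment over 5025 features at 0.05. The fit was tested on simulated data whose changes were far larger than the ratios of the 4 genes. That test does not show its power at ratios of their size. Differences between genes used an exact sign permutation over couples. Symbols come from human accessions, and 2823 of 2922 occur in the pig gene tables. HBB and AHSP are among those found, and MB and HBA1 are not. No coordinates or sequences were used.

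The genes named are the 4, list genes with an unadjusted p under 0.05 or among the 2 smallest of their list, and the 5 nearest to MB and to HBB. Fast fibre genes below 0 and slow fibre genes above 0 are named as well. The 4 genes and the lists were chosen with earlier results of these data known. Alternatives changed centring, scaling, spot averaging, direction, dye orientation, the block, filters and the couples used.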

Additional observations from a re-analysis of the deposited data

Results flagged for a closer look

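HBB in couple 4 had a log2 ratio of -0.19, far from couples 1 to 3, the nearest of which was at 0.12. AHSP spot 8076 read 0.93 in couple 2 with high energy in dye 5, while the nearest of its other 6 arrays was at -0.090; its neighbour 8075 read 1.01 on that array. These 2 stood apart among 22 sets of values examined, and chance alone sets apart about 1 in 20.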

How the results depend on the processing

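No feature passed in limma under any of 18 other settings, 1 of them chosen after the data were seen. The ratios of the 4 genes were computed in 17 settings and their 6 differences in 15, and each kept its sign there except as follows. With the dye 3 arrays turned, MB was 0.22, AHSP 0.17 and HBA1 0.029. In the same setting MB minus HBB was 0.17, MB minus HBA1 0.20, MB minus AHSP 0.066, AHSP minus HBB 0.10 and AHSP minus HBA1 0.13. With high energy in dye 5 only, HBA1 was 0.0035 and MB minus AHSP 0.034. With high energy in dye 3 only, HBB was -0.056. Averaging spots by their median gave HBB -0.021 and MB minus AHSP 0.081, and the median over the arrays gave HBA1 0.078. Leaving out 1 couple gave -0.0042 (without couple 2) to 0.14 for HBB, -0.072 to 0.013 for HBA1 (above 0 without couple 3 or 4) and -0.12 to 0.096 for MB minus AHSP (above 0 without couple 2). The count of features with an unadjusted p under 0.05, 190, was 108 with high energy in dye 5 only, 310 with couples taken as independent, 353 with all 8 arrays and the couple as a random block, and 108 to 305 without 1 couple (lowest without couple 2, highest without couple 3). The causes were not tested. Testing each spot or pair on its own gives no single ratio per gene. The 4 couples limit the precision. With values of a recovered signal under 100 left out, the count was 175 and 0 features passed.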
